A study of Mus musculus with 4 samples.

Results

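The genes of the cell death machinery were described in cumulus cells (CCs) from mouse oocytes of 2 chromatin types: the BCL2 family, the caspases with the apoptosome scaffold Apaf1, the inhibitor of apoptosis proteins (IAPs), the death receptors with their adaptors, and Aifm1. Members were the probes whose symbol in the deposited signal file, whatever its case, was 1 of 41 listed gene symbols. The rule found 36 of the 41 genes, on 80 of the 25697 probes. Bik, Hrk, Xiap, Tradd and Endog were not found under these symbols.

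The study asked whether CCs differ in expression with the chromatin of the oocyte they surround. NSN-CCs came from oocytes whose chromatin did not surround the nucleolus, and SN-CCs from oocytes whose chromatin formed a ring around it. Both groups were B6C3F1 females of 6 weeks by the labels, primed with folligon (a gonadotropin) 48 h before collection, with no other treatment. The study's methods give a range of ages up to 6 weeks. Each array of the Illumina mouse BeadChip held amplified RNA from CCs pooled over many cumulus-oocyte complexes, and there were 2 pools of NSN-CCs and 2 of SN-CCs. A pool averages over animals and follicles, so the spread between pools is not that between animals.

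Apoptosis is controlled at the mitochondrion by proteins of the BCL2 family: anti-apoptotic members hold the effectors BAX and BAK in check, and BH3-only proteins release that block. Cytochrome c then joins APAF1 and caspase-9, which activates further caspases, while IAPs restrain caspases and DIABLO restrains IAPs. Death receptors reach the same caspases through FADD and caspase-8. In the ovary this machinery is best known for its part in the death of granulosa and cumulus cells during follicular atresia.

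Signals are given as deposited, in arbitrary units with background left in, for the brightest probe of each gene, replicate 1 before replicate 2. The background limit of an array was the 95th percentile of 1371 probes of odorant, vomeronasal and taste receptors. It was 119.6 and 116 on the NSN-CCs arrays, against 116 and 119 on the SN-CCs arrays. The array of SN-CCs replicate 2 stood apart: its rank correlation with the others was 0.876 to 0.881, against 0.954 to 0.955 among the other 3, and 11729 of its probes passed the limit, against 13536 to 13712. Fold changes are therefore also given without this array. Summed signals of 15 cumulus and granulosa markers, all above the limit on at least 1 array, were 227440 and 222390 in NSN-CCs and 239680 and 177270 in SN-CCs. Inha gave 3760 in SN-CCs replicate 2, against 43879 to 46056 on the other 3 arrays, and Fst 4307, against 13902 to 15302. Inhba and Cyp19a1 were highest on that array. Of the 15 genes, 12 had fold changes above 0, and 9 without SN-CCs replicate 2. Summed signals of 16 oocyte markers were 5203 and 5191 in NSN-CCs and 6589 and 6963 in SN-CCs, with Zp2 above the limit on no array. Those of 17 macrophage and leukocyte markers were 3399.7 and 3575 in NSN-CCs and 3215 and 3241 in SN-CCs, with Ptprc and Itgam above it on none. For 10 erythroid markers they were 16122 and 16632 in NSN-CCs and 14130 and 9888 in SN-CCs, with Eraf among those above it on none. Hba-a1 made up 80.6 to 90.2% of each erythroid sum, the other 9 genes summed to 1629 and 1624 in NSN-CCs and 1835 and 1922 in SN-CCs, and 7 of the 10 genes had fold changes below 0. Theca and stroma markers summed to 4821 and 4856 in NSN-CCs and 4619.8 and 6403 in SN-CCs, endothelial markers to 2302 and 2366 against 2221 and 2199.6, and mural granulosa markers to 6288 and 6552 against 6634 and 8734. In SN-CCs replicate 2 Lhcgr gave 6215, against 2913 to 3417 on the other 3 arrays, and Cyp17a1 2808, against 1593 to 1768. Star, Cyp11a1 and Adamts1 were lowest on that array. Of 7 mural granulosa genes 4 had fold changes above 0, and of 12 theca and stroma genes 5. The part of all the cell types above in the members' values was not tested, and in pooled RNA fewer cells of a type cannot be told apart from less RNA per cell.

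Of the 36 genes, 24 gave a signal above the limit on all 4 arrays, 7 on 1 to 3 arrays and 5 on none. Pmaip1, Bnip3, Birc3, Birc6 and Cflar were the 5 that passed it on no array. Bak1, Bcl2l1 and Bmf passed it on every array but SN-CCs replicate 2, and Casp1 on every array but SN-CCs replicate 1. Casp12 passed it in NSN-CCs replicate 1 alone, Casp4 in replicate 2 of both groups, and Fas in NSN-CCs replicate 2 and SN-CCs replicate 1.

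**Figure D1:**
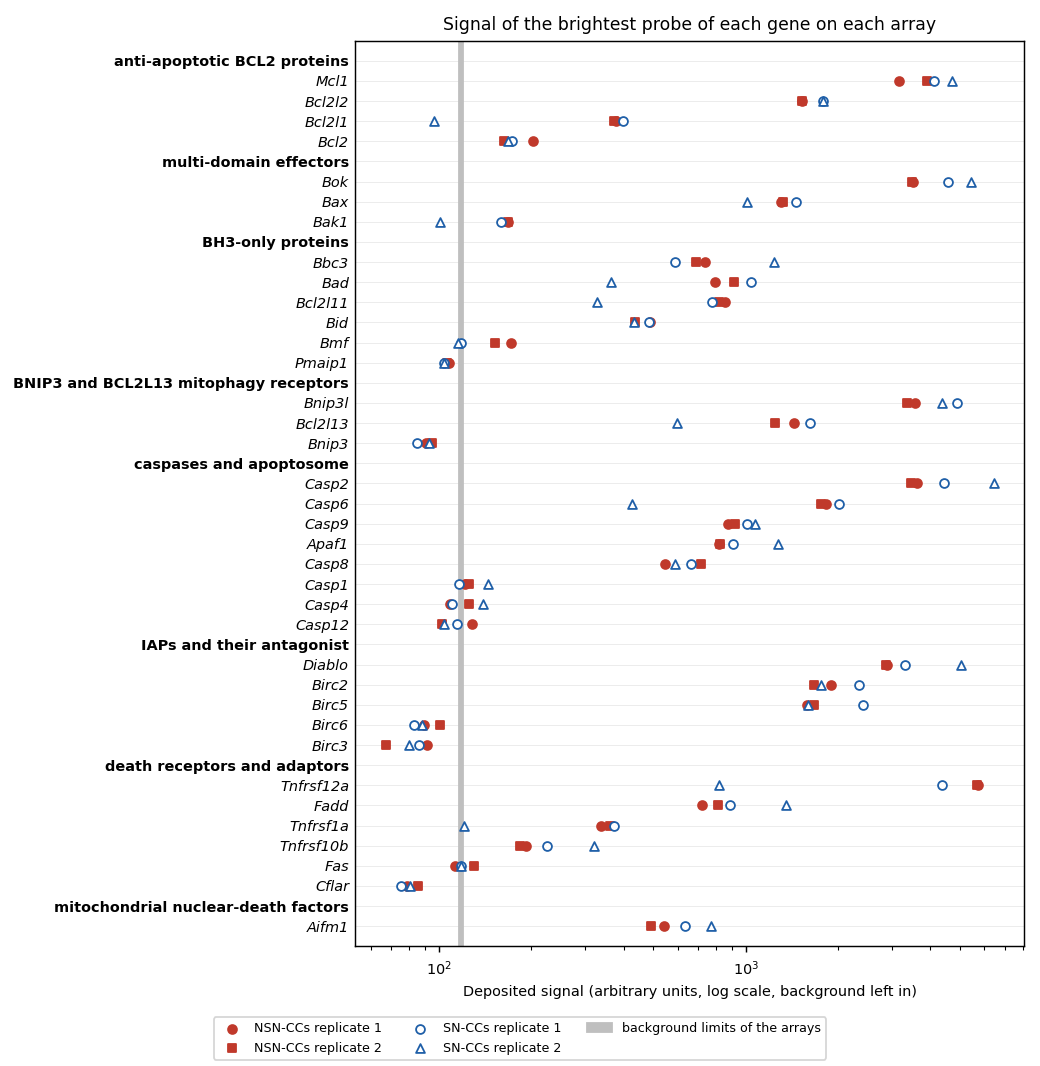
Deposited signal of the brightest probe of each gene (log axis, arbitrary units), with 1 point for each of the 2 NSN-CCs and 2 SN-CCs arrays and genes grouped by class. The NSN-CCs points lie close together for Bok, Bax and Bcl2l2, while SN-CCs replicate 2 lies far to the left for Tnfrsf12a, Casp6 and Bcl2l1 and to the right for Casp2 and Diablo.

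No gene of the cell death machinery passed an adjusted p of 0.05 between NSN-CCs and SN-CCs by limma with Benjamini-Hochberg adjustment over all 25697 probes, and neither did any other probe (0.0% in each direction). Adjusted p ranged from 0.811 to 0.982 over the 36 genes. At an unadjusted p under 0.05, 1 gene was higher in NSN-CCs and 0 were lower, where 1.1% of all probes were higher and 2.01% lower. With 2 pools a group, the smallest two-sided p of an exact permutation test over the 6 arrangements is 0.333.

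Fold changes are log2 values, NSN-CCs minus SN-CCs, with their standard error (SE). They were above 0 for 14 genes and below 0 for 22, with 44.0% of all probes above 0. Their median was -0.13 (0.011 with the mean of each gene's probes), and that of all probes was -0.03. Over all 80 member probes, 38 were above 0 and 42 below, with a median of -0.03. The 24 genes above the limit on all arrays had a median of -0.16, with 7 above 0. The 10589 probes above it on all arrays had a median of -0.13, with 3971 above 0. Without SN-CCs replicate 2, 16 genes were above 0 and 20 below, with a median of -0.02. After normalisation both NSN-CCs pools lay above both SN-CCs pools for 4 genes (11.1%, against 16% of all probes) and below them for 10 genes (27.8%, against 22.2% of all probes). Among the 24 genes above the limit on all arrays, the NSN-CCs pools lay above for 2 (8.33%, against 16.1% of the 10589 probes that passed it likewise) and below for 10 (41.7%, against 28.0%). These shares were not tested. The summed oocyte markers, given above, were also lower in both NSN-CCs pools, and their part in the members' values was not tested. SN-CCs replicate 2 gave the highest signal of the 4 arrays for 13 genes (36.1%, against 30.3% of all probes). It gave the lowest for 12 genes (33.3%, against 37.2% of all probes). For 7 genes (19.4%, against 8.79% of all probes) its signal was under 0.5 of the mean of the other 3 arrays. Among those above the limit on all arrays, this held for 6 of the 24 genes, against 14.3% of the 10589 probes. The shares for this array were not tested.

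**Figure D2:**
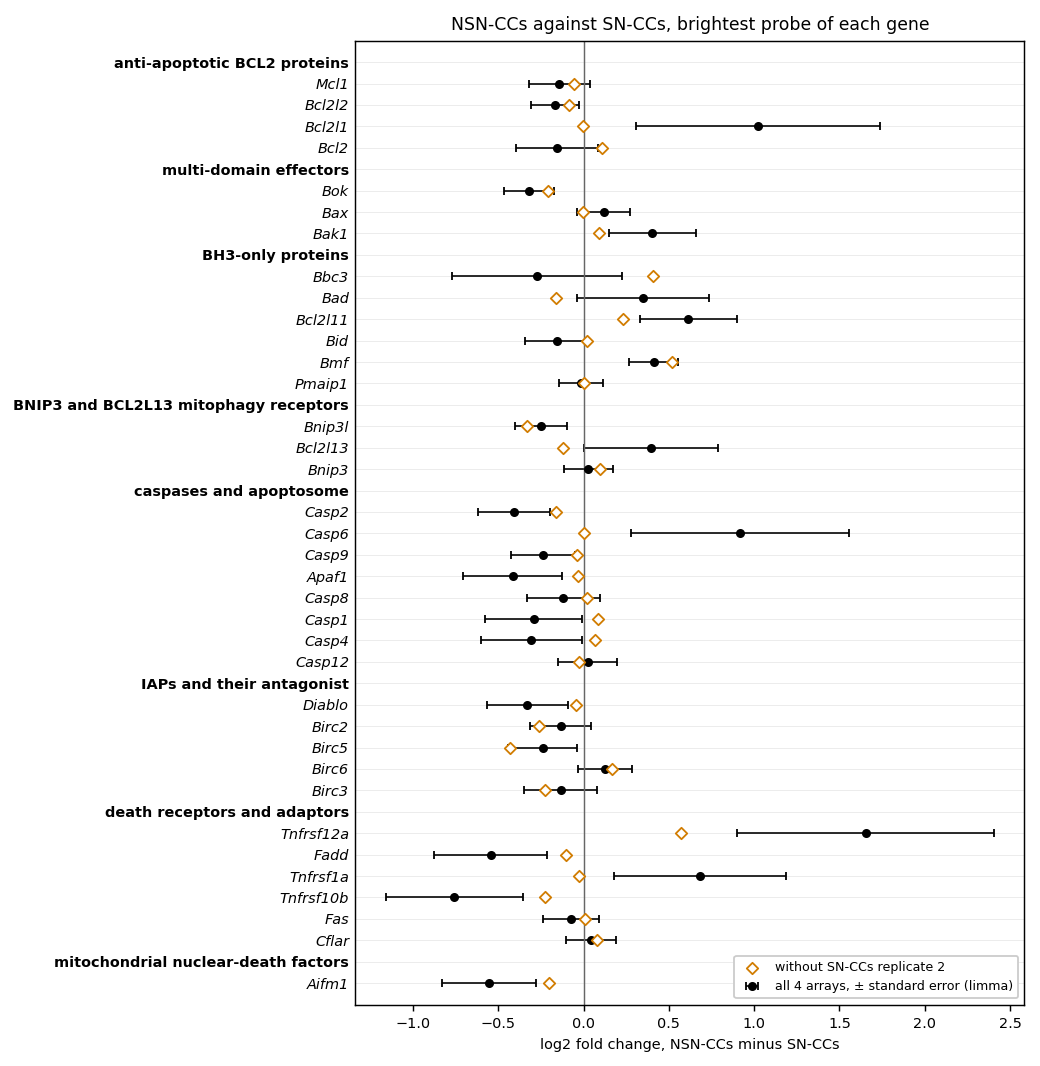
Log2 fold change (NSN-CCs minus SN-CCs) of the 36 genes with bars of 1 SE, from all 4 arrays and, as open points, without SN-CCs replicate 2. Without that array the values lie nearer to 0 for Tnfrsf12a (1.65 and 0.57) and Bcl2l1 (1.02 and -0.0022), and farther from it for Bmf (0.41 and 0.52).

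For the 4 members with the lowest unadjusted p, the 250 bases before the annotated start are printed to show the sequence that each gene's start lies in. They are RefSeq sequences of GRCm38.p6, 5′ to 3′ on the gene's strand, and where a gene has several starts the outermost is shown. The regions are chr2:118549687-118549936 (minus strand) for Bmf, chr17:23677450-23677699 (minus strand) for Tnfrsf12a, chr1:93685325-93685574 (plus strand) for Bok and chr2:128125788-128126037 (plus strand) for Bcl2l11. Capitals mark matches on either strand. The TATA box was searched as TATAAA, the CCAAT box by the letters of its name and the GC box as GGGCGG. The FOXO motif was searched as GTAAACA and the cell cycle homology region, CHR, as TTTGAA.
Bmf: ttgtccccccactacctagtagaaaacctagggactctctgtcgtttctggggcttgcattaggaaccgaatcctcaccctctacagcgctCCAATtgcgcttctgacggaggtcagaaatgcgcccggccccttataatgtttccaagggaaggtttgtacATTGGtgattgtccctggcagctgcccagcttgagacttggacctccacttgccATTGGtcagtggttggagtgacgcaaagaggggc
Tnfrsf12a: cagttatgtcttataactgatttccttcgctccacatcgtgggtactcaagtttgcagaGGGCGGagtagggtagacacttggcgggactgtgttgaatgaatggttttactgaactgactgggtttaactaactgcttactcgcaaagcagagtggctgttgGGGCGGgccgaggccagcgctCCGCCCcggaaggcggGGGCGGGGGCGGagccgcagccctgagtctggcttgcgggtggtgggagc
Bok: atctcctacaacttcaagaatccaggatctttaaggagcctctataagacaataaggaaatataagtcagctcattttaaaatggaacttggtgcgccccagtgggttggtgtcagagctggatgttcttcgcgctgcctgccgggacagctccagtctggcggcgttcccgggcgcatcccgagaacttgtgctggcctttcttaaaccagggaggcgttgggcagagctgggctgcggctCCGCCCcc
Bcl2l11: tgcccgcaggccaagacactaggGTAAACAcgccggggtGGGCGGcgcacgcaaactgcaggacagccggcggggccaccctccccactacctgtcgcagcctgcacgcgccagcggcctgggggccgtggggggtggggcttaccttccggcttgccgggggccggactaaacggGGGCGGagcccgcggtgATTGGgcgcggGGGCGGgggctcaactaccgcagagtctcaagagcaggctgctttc

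The Bmf sequence held 3 CCAAT boxes, that of Tnfrsf12a 5 GC boxes, that of Bok 1 GC box at -8, and that of Bcl2l11 1 FOXO match at -227, 3 GC boxes and 1 CCAAT box. Promoter sequences matched 33 of the 36 genes, with 43 annotated starts. A GC box was found in 25 of these 43 promoters (58.1%, 22 genes), against 32.7% of 32851 mouse promoters. A CCAAT box was in 27.9% of the members' promoters, against 33.8% of all, and a CHR in 16.3%, against 16%. The FOXO motif was found in 4 of them (9.3%), those of Bbc3, Bcl2l11 and Casp4, against 3.17% of all. The 2 Casp4 starts lie 11 bases apart and share 1 match, so the 4 promoters hold 3 different matches. Only the Cflar promoter had a TATA box, which 12.4% of all promoters held. GC content had a median of 60.4% in the members and 52.4% in all promoters. A match is a description of these letters and not evidence of a site.

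Anti-apoptotic BCL2 proteins were measured through 4 genes, with fold changes above 0 for 1 and below 0 for 3 (1 to 2 above 0 over the alternative settings). Such ranges, here and below, are for the brightest probe of each gene and leave out the setting with the mean of a gene's probes. Mcl1, a short-lived protein that binds BAK and BH3-only proteins, gave 3159.7 and 3897 in NSN-CCs, against 4095 and 4702 in SN-CCs. Both NSN-CCs pools lay under both SN-CCs pools in signal, but after normalisation the groups overlapped and the fold change was -0.14 (SE 0.18), with -0.06 when SN-CCs replicate 2 and 0.02 when NSN-CCs replicate 1 was left out. Bcl2l1, which encodes BCL-XL, gave 378 and 373 in NSN-CCs, against 399 and 96.2 in SN-CCs. Only SN-CCs replicate 2 was low, at a signal under its background limit. The fold change of Bcl2l1 was 1.02 (SE 0.71) with all arrays and -0.0022 without that one. Bcl2l2 (BCL-W) gave 1524 and 1527 in NSN-CCs, against 1781 and 1791 in SN-CCs, with a fold change of -0.17 (SE 0.14) and of -0.08 without SN-CCs replicate 2. Bcl2, for which 8 probes were on the array, gave 202 and 163 in NSN-CCs, against 173 and 168 in SN-CCs. Its groups overlapped, and 4 of the 8 probes had fold changes above 0 and 4 below.

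The multi-domain effectors permeabilise the outer mitochondrial membrane. Bok, a BAX relative known from reproductive tissue, gave 3519.6 and 3484 in NSN-CCs, against 4552 and 5441 in SN-CCs. Both NSN-CCs pools were lower than both SN-CCs pools, with a fold change of -0.32 (SE 0.15, unadjusted p 0.093, adjusted p 0.811 by limma), and of -0.21 without SN-CCs replicate 2. The other Bok probe gave 470.3 and 478 in NSN-CCs, against 614 and 87.8 in SN-CCs. That probe had a fold change of 1.15 with all arrays and of -0.28 without SN-CCs replicate 2, and the mean of both Bok probes was 0.42. Bax gave 1308 and 1322 in NSN-CCs, against 1463 and 1013 in SN-CCs, and the NSN-CCs values lay between those of the SN-CCs pools. Bak1 gave 168 and 168 in NSN-CCs, against 159.5 and 101 in SN-CCs. Its groups did not overlap, with a fold change of 0.40 (SE 0.26), of 0.09 without SN-CCs replicate 2, where its signal was under the limit, and of -0.19 in the authors' normalised table. Of the 3 effectors, 2 had fold changes above 0 (1 to 2 over the alternatives, and 3 with the mean of each gene's probes).

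BH3-only proteins sense stress and either block the anti-apoptotic members or activate the effectors. Bmf, a BH3-only protein held on the cytoskeleton, was the 1 member at an unadjusted p under 0.05. It gave 172 and 153 in NSN-CCs, against 118 and 115 in SN-CCs. Both NSN-CCs pools were above the limit, and the SN-CCs pools lay next to their limits of 116 and 119. The fold change of Bmf was 0.41 (SE 0.14, unadjusted p 0.044, adjusted p 0.811 by limma), and 0.52 without SN-CCs replicate 2. In the normalised table of the authors Bmf gave 169 and 152 in NSN-CCs, against 121 and 223 in SN-CCs, and the fold change there was -0.0027, with overlapping groups.

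Bcl2l11, which encodes BIM, gave 855 and 820.1 in NSN-CCs, against 779 and 327 in SN-CCs. The groups did not overlap, but SN-CCs replicate 1 lay close to the NSN-CCs pools, with a fold change of 0.61 (SE 0.29, unadjusted p 0.094) and of 0.23 without SN-CCs replicate 2. All 4 Bcl2l11 probes had fold changes above 0, but the dimmest was above the limit on 1 array only. In the authors' normalised table the 2 dimmest probes had fold changes of -0.41 and -0.46, and the others of 0.67 and 0.07. Bbc3, which encodes the p53 target PUMA, gave 738 and 691 in NSN-CCs, against 587 and 1241 in SN-CCs. The SN-CCs pools lay on either side of the NSN-CCs pools, and the fold change was -0.27 (SE 0.50) with all arrays and 0.40 without SN-CCs replicate 2. Bad gave 795 and 914 in NSN-CCs, against 1037 and 365 in SN-CCs, also with the SN-CCs pools on either side (0.35, SE 0.39, and -0.16 without SN-CCs replicate 2). Bid, which caspase-8 cleaves, gave 489 and 436 in NSN-CCs, against 484 and 432 in SN-CCs, with overlapping groups. Pmaip1 (NOXA) gave 104 to 108 on the 4 arrays, under the limit. Of the 6 BH3-only genes, 3 had fold changes above 0 (2 to 5 over the alternatives).

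Bnip3, Bnip3l and Bcl2l13 encode mitophagy receptors of the outer mitochondrial membrane. Bnip3l (NIX) gave 3569.9 and 3344 in NSN-CCs, against 4899 and 4353 in SN-CCs. Both NSN-CCs pools were lower than both SN-CCs pools, with a fold change of -0.25 (SE 0.15) and of -0.33 without SN-CCs replicate 2. Bnip3l is also known from the clearing of mitochondria in maturing red cells. Bcl2l13 gave 1440.4 and 1248 in NSN-CCs, against 1616 and 598 in SN-CCs, with the SN-CCs pools on either side and fold changes of 0.40 (SE 0.39) and, without SN-CCs replicate 2, of -0.12. Bnip3 gave 84.9 to 94.7, below the limit on every array.

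Caspases and Apaf1 were measured through 8 genes, with fold changes above 0 for 2 and below 0 for 6 (1 to 4 above 0 over the alternatives, and 4 without SN-CCs replicate 2). Casp2, an initiator caspase, gave 3629 and 3447 in NSN-CCs, against 4429 and 6445 in SN-CCs. Casp2 was lower in both NSN-CCs pools, with a fold change of -0.41 (SE 0.21) and of -0.16 without SN-CCs replicate 2. Casp9, the caspase of the apoptosome, gave 878 and 922 in NSN-CCs, against 1009 and 1073 in SN-CCs. Apaf1, its scaffold, gave 819.6 and 824 in NSN-CCs, against 911 and 1277 in SN-CCs. The groups of both genes did not overlap, with fold changes of -0.24 (SE 0.19) for Casp9 and -0.41 (SE 0.29) for Apaf1, and of -0.04 and -0.03 without SN-CCs replicate 2. The other Apaf1 probe gave 248 and 258 in NSN-CCs, against 257 and 85.2 in SN-CCs, and its fold change was 0.86 with all arrays and 0.05 without SN-CCs replicate 2, where it was under the limit. The other Casp9 probes, above the limit on 2 arrays and on none, had fold changes of 0.37 and -0.04 with all arrays.

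Casp8, the initiator caspase of death receptors, gave 545 and 715 in NSN-CCs, against 665 and 588 in SN-CCs, with overlapping groups. The other Casp8 probe gave 370 and 404 in NSN-CCs, against 457 and 500 in SN-CCs, without overlap. Its fold change was -0.49 with all arrays and -0.16 without SN-CCs replicate 2. Casp6, which cleaves lamin A, gave 1825 and 1762 in NSN-CCs, against 2009.9 and 425 in SN-CCs. Only SN-CCs replicate 2 was low, and the Casp6 fold change was 0.92 (SE 0.64) with all arrays and 0.01 without it. Casp1 and Casp4 are inflammatory caspases, best known from macrophages. Casp1 gave 122 and 125.4 in NSN-CCs, against 116 and 145 in SN-CCs. Casp4 gave 109 and 126 in NSN-CCs, against 110.1 and 139 in SN-CCs. For both genes all values lay near the background limit, and SN-CCs replicate 2 was the highest. The fold changes were -0.29 (SE 0.29) for Casp1 and -0.31 (SE 0.30) for Casp4, and they were 0.08 and 0.06 without SN-CCs replicate 2. In the normalised table of the authors the same array stood at 246 for Casp1, against 119 to 127 on the other 3, and at 242 for Casp4, against 111 to 127. The study's own list of changed cell death genes, drawn from these same arrays, holds Casp1 and Casp4, and their direction therefore gives no independent support. The other Casp4 probes had fold changes of 0.02 and 0.12 with all arrays. Casp12 gave 128 and 103 in NSN-CCs, against 115 and 104 in SN-CCs.

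The IAPs and their antagonist Diablo had fold changes above 0 for 1 of 5 genes (0 to 2 over the alternatives). Diablo, released from mitochondria to bind IAPs, gave 2887 and 2865 in NSN-CCs, against 3317 and 5047 in SN-CCs. Diablo was lower in both NSN-CCs pools, with a fold change of -0.33 (SE 0.24) and of -0.04 without SN-CCs replicate 2. Birc5, which encodes survivin and is also a subunit of the chromosomal passenger complex in dividing cells, gave 1584 and 1670.1 in NSN-CCs, against 2416 and 1595 in SN-CCs. SN-CCs replicate 1 was the high value, and the fold change of Birc5 was -0.24 (SE 0.20) with all arrays and -0.43 without SN-CCs replicate 2. Another Birc5 probe gave 1298 and 1552 in NSN-CCs, against 2158 and 737 in SN-CCs. For the last probe NSN-CCs gave 934 and 995, against 1446 and 528 in SN-CCs. The fold changes of these 2 probes were 0.14 and 0.04 with all arrays, and -0.45 and -0.45 without SN-CCs replicate 2. Birc2 (cIAP1) gave 1897 and 1666 in NSN-CCs, against 2348 and 1758 in SN-CCs, with overlapping groups. Birc3 and Birc6 lay between 67.1 and 101 on all arrays, under the limit.

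The genes listed as death receptors and adaptors included the member with the most positive fold change, Tnfrsf12a. Its place in this class is that of the list and does not state that its receptor acts through FADD or caspase-8. Tnfrsf12a, the receptor FN14 for the cytokine TWEAK, gave 5736 and 5653 in NSN-CCs, against 4359 and 818 in SN-CCs. Both NSN-CCs pools were higher than both SN-CCs pools, which themselves differed widely. The fold change of Tnfrsf12a was 1.65 (SE 0.75, unadjusted p 0.089, adjusted p 0.811 by limma), and 0.57 without SN-CCs replicate 2. Tnfrsf1a, the main receptor for TNF, gave 337 and 360.2 in NSN-CCs, against 373 and 121 in SN-CCs. Only SN-CCs replicate 2 was low, in all 3 Tnfrsf1a probes, and the fold change was 0.68 (SE 0.50) with all arrays and -0.03 without it. Tnfrsf10b, the mouse receptor for TRAIL, gave 193 and 184 in NSN-CCs, against 226 and 321 in SN-CCs. Fadd, the adaptor that recruits caspase-8, gave 723 and 811 in NSN-CCs, against 888 and 1356 in SN-CCs. Both genes were lower in both NSN-CCs pools, with fold changes of -0.76 (SE 0.40) for Tnfrsf10b and -0.54 (SE 0.33) for Fadd, and of -0.22 and -0.10 without SN-CCs replicate 2. All 5 Tnfrsf10b probes and all 4 Fadd probes had fold changes below 0 with all arrays. The dimmest Tnfrsf10b probe was above the limit on no array, and the dimmest Fadd probe had a fold change of 0.15 without SN-CCs replicate 2. Fas gave 112.5 to 129.96 over the 4 arrays and Cflar, the caspase-8 inhibitor cFLIP, 75.3 to 85.6, values near the limit for Fas and under it for Cflar. Of these 6 genes 3 had fold changes above 0 (2 to 4 over the alternatives).

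Aifm1 encodes a flavoprotein of the mitochondrial intermembrane space that can move to the nucleus in caspase-independent death. It gave 540.1 and 489.7 in NSN-CCs, against 634 and 769.7 in SN-CCs. Aifm1 was lower in both NSN-CCs pools, with a fold change of -0.56 (SE 0.28) and of -0.20 without SN-CCs replicate 2. All 3 Aifm1 probes had fold changes below 0, but the dimmest, at 82.2 to 86.5, was above the limit on no array.

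Probes of 1 gene did not always run the same way. Of 21 genes with several probes, 10 had probes with fold changes in both directions, and 8 of 17 did among genes with 2 or more probes above the limit on at least 2 arrays. In SN-CCs replicate 2 the probes of 1 gene could lie on either side of the other arrays. Its signal over the mean of the other 3 arrays was 0.169 and 1.41 for the 2 Bok probes, 0.335 and 1.4998 for the 2 Apaf1 probes, and 0.773 to 1.85 for the 3 Bbc3 probes. Bcl2l1, Casp6 and Tnfrsf1a had ratios under 1 in every probe above the limit on at least 2 arrays, the highest being 0.672, 0.403 and 0.338. The same held for Bcl2l11 and Birc5, with highest ratios of 0.793 and 0.844.

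**Figure D3:**
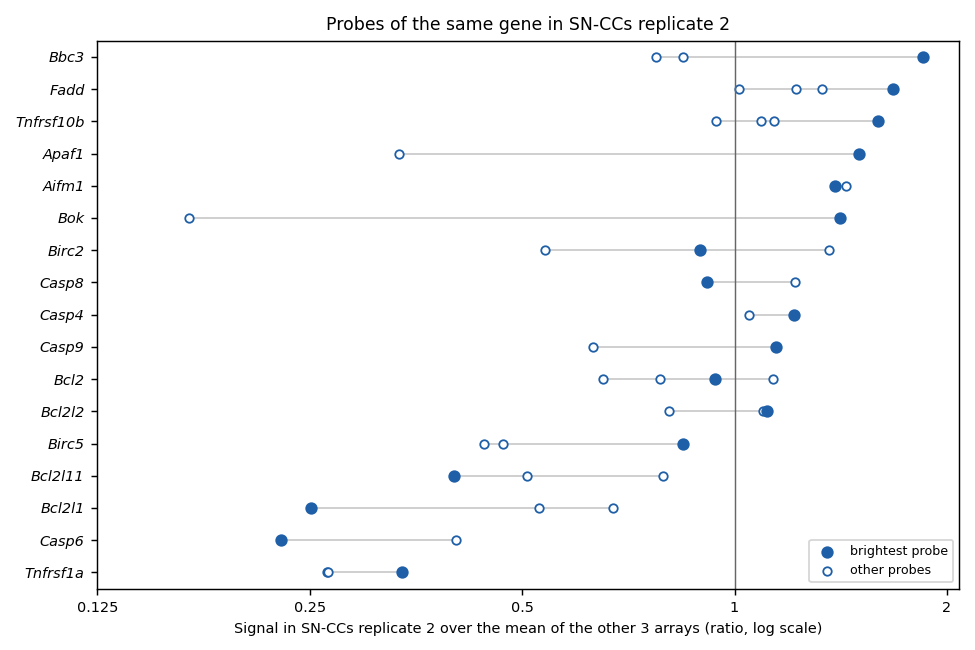
Signal of SN-CCs replicate 2 divided by the mean of the other 3 arrays (log axis) for each probe of the genes with several probes above the limit. Probes of Bok lie at 0.169 and 1.41 on either side of 1, while all probes of Tnfrsf1a lie at 0.338 or lower.

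Bik, Hrk and Xiap were on the array under older names, on 5 probes, and were looked up after the rule was applied. Bik, a BH3-only protein, gave 115 and 125.3 in NSN-CCs, against 111 and 147 in SN-CCs. The SN-CCs pools lay on either side of the NSN-CCs pools, with a fold change of -0.33 (SE 0.32) and of 0.09 without SN-CCs replicate 2. Bik too is on the study's list of changed cell death genes, which was drawn from the same arrays, and its direction gives no independent support. In the normalised table of the authors Bik stood at 116 and 127 in NSN-CCs, against 115 and 248 in SN-CCs. Hrk gave 76.8 to 89.7, and the 3 Xiap probes lay under the limit on every array.

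The dim members depended on which deposited table was used. For the 12 genes not above the limit on all 4 arrays, SN-CCs replicate 2 was the highest array for 2 in the signals and for 11 in the authors' normalised table. There it lay at 197 to 246, and its lowest value over all probes was 182, against 66.2 and 66.2 in NSN-CCs and 69.1 in SN-CCs replicate 1. Fold changes there were taken after a shift of the whole table to a lowest value of 16, which widens those of dim genes. They were below 0 for 11 of the 12 genes, with a median of -0.69. The median of all probes was -0.61 in that table. The 24 genes above the limit on all arrays had a median of -0.14 there, and 9 of the 36 genes had fold changes above 0.

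**Figure D4:**
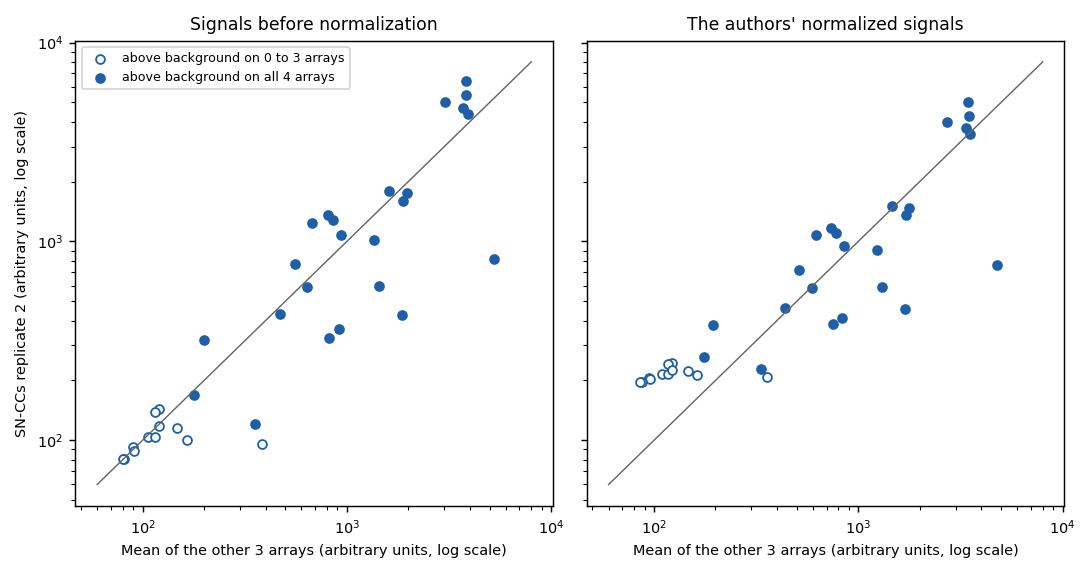
Value of each of the 36 genes in SN-CCs replicate 2 against the mean of the other 3 arrays, in the deposited signals (left) and in the authors' normalised table (right), both log axes in arbitrary units with a line of equal values. The 12 genes not above the limit on all arrays, open points, lie at 80.2 to 145 in SN-CCs replicate 2 in the signals and at 197 to 246 in the normalised table.

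Other genes of the apoptosis pathway, 64 of 69 listed, had fold changes above 0 for 37 and below 0 for 27, with a median of 0.09 (-0.29 in the authors' table, and 34 above and 30 below without SN-CCs replicate 2). None passed the adjusted threshold by limma, and at an unadjusted p under 0.05, 2 were higher and 2 lower. Tnfrsf21, the death receptor DR6, gave 311 and 337 in NSN-CCs, against 264 and 158 in SN-CCs, with a fold change of 0.49 (SE 0.15). Pdcd5, a protein linked to p53 activity, gave 452 and 458 in NSN-CCs, against 371 and 256 in SN-CCs, with 0.39 (SE 0.13). The groups of both genes did not overlap, and the fold changes without SN-CCs replicate 2 were 0.39 for each. Pdcd10, a kinase adaptor, gave 639 and 646 in NSN-CCs, against 931 and 994 in SN-CCs, with a fold change of -0.66 (SE 0.19) and of -0.43 without SN-CCs replicate 2. Tnfsf10, the ligand TRAIL, gave 100.4 and 94.6 in NSN-CCs, against 115 and 116 in SN-CCs, above the limit on no array.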

How the data were processed

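Non-normalised probe intensities, deposited by the authors for 4 arrays, were read from the scanner with BeadStudio (version 3 in the submitters' processing notes) from RNA amplified before labelling, and still hold background. A genome build for the probes is not given in the sources used here. The authors' normalised table, deposited as intensities that the study's methods call background-subtracted and rank invariant normalised, served as an alternative. Before the log2 step it was shifted as a whole to a lowest value of 16, which widens the fold changes of dim probes. Intensities were corrected with normexp (offset 50), quantile normalised, put on the log2 scale and fitted over all 25697 probes with lmFit and eBayes (limma 3.58.1, R 4.3.3), comparing NSN-CCs with SN-CCs, with Benjamini-Hochberg adjustment. The fit was tested on simulated data that gave every array the spread of the NSN-CCs pools. The median standard deviation over all probes was 0.081 in NSN-CCs and 0.19 in SN-CCs (log2), so the wider SN-CCs spread was not simulated. A gene was given by its probe of highest mean signal. The genes to be named were the brightest and the lowest-p member of each class, members at an unadjusted p under 0.05, those on the study's list of changed cell death genes, Birc5, and the 2 higher and 2 lower other apoptosis genes of lowest p. Signals of further members were added after their values were seen. Marker lists covered cumulus and granulosa, mural granulosa, oocyte, leukocyte, erythroid, theca and endothelial cells. Members and lists were chosen with earlier results of these data known. Alternatives were background correction, scaling, the authors' table, a filter on dim probes, array weights, the replicate block, the mean of a gene's probes and leaving out each array. Single values of some genes on these lists are not reported here. The number of arrays limits the precision. The labels' tissue field names oocytes where the titles and the study name CCs.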

Additional observations from a re-analysis of the deposited data

How the results depend on the processing

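Counts at an adjusted p under 0.05 were 0 in every setting that kept all 4 arrays. Leaving out 1 pool gave 0 to 9546 probes, 0 to 19 member genes and 0 to 36 other apoptosis genes. The highest counts came without SN-CCs replicate 1, where SN-CCs replicate 2 alone stood for its group and was assumed to vary like the others; without SN-CCs replicate 2 there was 1 probe and no member gene. At an unadjusted p under 0.05, members higher in NSN-CCs (1) numbered 0 with offset 16, in the authors' table and with the dim probe filter, 2 with array weights and 0 to 9 without 1 pool; members lower (0) numbered 2 with median scaling, 1 with array weights and 0 to 13 without 1 pool. Other apoptosis genes higher (2) numbered 1 with median scaling, offset 16 or the filter, 0 in the authors' table, 6 with array weights and 0 to 25 without 1 pool, and those lower (2) numbered 1 without background correction, with the filter, array weights or the replicate block, 0 in the authors' table and 0 to 16 without 1 pool. The members' median (-0.13) was 0.011 with the mean of each gene's probes, -0.06 with median scaling, -0.22 in the authors' table and -0.15 to -0.015 without 1 pool. That of the other apoptosis genes (0.09) was 0.05 with median scaling, 0.16 with offset 16, 0.21 with the filter, -0.29 in the authors' table and 0.01 to 0.10 without 1 pool. Of all 25697 probes, 800 had an unadjusted p under 0.05 by limma in the main setting. They numbered 1144 with median scaling, 1286 with array weights, 630 with offset 16 and 14 in the authors' table. The members' counts were not tested against these. Counts without 1 pool, where 1 array stood for a group, are not evidence about the members.

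Fold changes were followed over the settings for the members that the naming rule picked. Those that turned sign, over the settings without 1 pool, were those of Bbc3 (-0.99 to 0.40), Bcl2l1 (-0.0022 to 1.98), Casp1 (-0.62 to 0.085), Casp4 (-0.63 to 0.065) and Mcl1 (-0.32 to 0.021). Further members, such as Bad, Bcl2l13 and Tnfrsf1a, also turned sign without SN-CCs replicate 2. The fold change of Bmf was -0.0027 in the authors' table and that of Bok 0.42 with the mean of its probes. The cause was not tested. Aifm1, Birc5, Bnip3l, Casp2, Diablo and Tnfrsf12a kept their direction in every setting run. The pools were not paired by replicate number in the main fit. The replicate deviations of the 2 groups had a correlation of 0.04 over all probes, which rests on 1 difference a group and cannot decide on pairing. With the replicate block 605 probes, against 800 without it, had an unadjusted p under 0.05 by limma, with no change in the members' counts.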
